A study of Homo sapiens with 9 samples.

Results

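Of the regions bound by ARID subunits in HepG2 cells, 519 lay outside promoters and carried a peak of ARID1A, of ARID1B and of ARID2. They were chosen by the deposited peak positions and classes: the peaks of the 3 ARID lists were pooled, peaks sharing at least 1 bp were merged, and a merged region was kept when each of the 3 lists gave it a peak and no peak of it had the deposited class Promoter. Pooling and merging gave 25247 regions. Of these, 10638 held no promoter peak, and the 519 regions made up 4.88% of them. The other non-promoter regions held peaks of 2 ARIDs (1138 regions) or 1 ARID (8981 regions). Peaks of all 3 ARIDs with a promoter peak among them were found in 1388 regions, so the 519 were 27.2% of all regions with the 3 ARIDs.

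The study used ChIP-seq in HepG2, an established line from a human hepatocellular carcinoma, to map 4 subunits of the chromatin remodeler SWI/SNF. The labels name no treatment or edit for any of the 9 libraries, which comprised 2 replicates for each of the antibodies against ARID1A, ARID1B, ARID2 and SNF5, and 1 input library without antibody. Chromatin was lightly fixed and cut with micrococcal nuclease. The authors merged both replicates of an antibody before calling peaks, so each subunit has 1 list, no replicate error can be given, and the depth behind each value is unknown.

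SWI/SNF complexes use ATP to slide or evict nucleosomes and so open DNA for transcription factors. ARID1A and ARID1B are alternative, mutually exclusive subunits of the BAF form of the complex, whereas ARID2 belongs to the PBAF form, and SNF5 (SMARCB1) is a core subunit of both. Regions away from promoters include enhancers, where factors such as FOXA, HNF4, C/EBP and AP-1 bind in liver cells. Because the forms are mutually exclusive, peaks of the 3 ARIDs over 1 region come from different molecules of a cell population. Whether they were on the DNA at the same time was not measured.

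The bases that peaks of all 3 ARIDs covered are printed for the intronic, the distal and the exonic region with the most such bases in its class, as the clearest cases of shared binding, and at most the central 300 bp is given. Sequences are the plus strand of GRCh37 (hg19), 5′ to 3′. Capitals mark matches to the motifs that are spelled out further on. The first is in an intron of SOX9, a transcription factor of progenitor and bile duct cells. The second is distal to AC007405.2, a transcript upstream of the Wnt target SP5. The third is in the coding exon of FZD5, a Frizzled receptor for Wnt ligands.
SOX9 chr17:70119267-70119566: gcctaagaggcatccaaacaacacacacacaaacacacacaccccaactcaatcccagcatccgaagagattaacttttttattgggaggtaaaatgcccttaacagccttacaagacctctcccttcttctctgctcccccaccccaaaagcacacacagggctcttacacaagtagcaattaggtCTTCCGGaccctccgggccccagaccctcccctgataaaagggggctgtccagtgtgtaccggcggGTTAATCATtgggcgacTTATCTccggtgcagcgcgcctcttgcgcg
AC007405.2 chr2:171568459-171568758: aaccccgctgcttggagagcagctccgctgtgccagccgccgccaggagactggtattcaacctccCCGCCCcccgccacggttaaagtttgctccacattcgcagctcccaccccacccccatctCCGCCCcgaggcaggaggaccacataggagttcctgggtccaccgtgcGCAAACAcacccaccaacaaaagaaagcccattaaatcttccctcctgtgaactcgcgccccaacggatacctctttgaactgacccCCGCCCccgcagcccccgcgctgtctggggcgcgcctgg
FZD5 chr2:208632873-208633172: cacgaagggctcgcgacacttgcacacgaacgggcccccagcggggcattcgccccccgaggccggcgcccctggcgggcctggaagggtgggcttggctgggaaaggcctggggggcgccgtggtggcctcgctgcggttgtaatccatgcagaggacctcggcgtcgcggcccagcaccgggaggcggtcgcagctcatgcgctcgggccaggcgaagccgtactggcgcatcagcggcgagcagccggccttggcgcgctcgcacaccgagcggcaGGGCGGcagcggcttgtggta
The SOX9 stretch had a GC content of 53.7% and held a GATA, an ETS and an HNF1 match. The AC007405.2 stretch had a GC content of 64.3% and held 3 SP/KLF matches and 1 forkhead match. The FZD5 stretch had a GC content of 73.7% and an observed to expected CpG ratio of 0.917, and held 1 SP/KLF match.

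Merging chains peaks, so the 3 ARIDs need not cover a common base. Of the 519 regions, 390 (75.1%) had at least 1 base under peaks of all 3 ARIDs and 129 (24.9%) had none. Among the 390, the number of shared bases had a median of 118 bp, quartiles of 54 and 208 bp and a maximum of 1216 bp. More than 300 shared bases were present in 56 regions, and 22 shared between 1 and 10. Linking only peaks of different ARIDs that covered at least 50% of each other left 112 regions. A chain of such links was enough, so not each pair of peaks had to meet this limit. In contrast, also merging peaks with a gap of at most 1000 bp raised the number to 600. On the other side of the rule, 90 of the 1138 regions with 2 ARIDs (7.91%) had a peak of the third within 100 bp, and 360 (31.6%) within 1000 bp.

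The 519 regions were assembled from 1716 peaks, of which 565 were ARID1A, 568 ARID1B and 583 ARID2 peaks. These were 4.40%, 6.51% and 4.49% of the respective lists. In 409 regions each ARID contributed 1 peak, and the most peaks in a region was 7, at FZD5. Region widths ran from 58 to 2510 bp, with quartiles of 438, 635 and 876 bp. The widest peak was of ARID1A in 209 regions, of ARID1B in 178 and of ARID2 in 132. ARID1A peaks covered a median of 63.3% of the region (quartiles 40.5% and 88.7%), ARID1B peaks 57.4% (30.9% and 80.2%) and ARID2 peaks 53.9% (32.2% and 78.3%). The quartiles of the 3 subunits overlapped widely. As the rule required a peak of each subunit, this coverage is a description. The median peak widths of ARID1A, ARID1B and ARID2 here were 333, 261 and 253 bp, against 165, 151 and 157 bp for the other non-promoter peaks of the same lists. A wider peak has more chance to meet another, and width took part in the choice of regions, so this difference is a description.

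By deposited class, 274 regions (52.8%) were distal to genes, 217 (41.8%) intronic, 13 exonic, 13 exonic and intronic, and 2 distal and exonic. In the Gencode v44 annotation lifted to GRCh37, each region was given the first class it touched in the order coding sequence, UTR, non-coding exon, intron. By that order 12 regions touched coding sequence, 21 a UTR, 60 a non-coding exon and 237 an intron, and 189 were intergenic. The deposited distance to the nearest transcription start site (TSS) had a median of 7396 bp (quartiles 2846 and 16637 bp). In 209 regions (40.3%) it exceeded 10000 bp, and in 80 (15.4%) it was under 2000 bp. The nearest were in NEK6, a mitotic kinase gene, at 1004 bp, and beside ST3GAL2, a sialyltransferase gene, at 1019 bp. Among the farthest was the region assigned to OLIG3, a neural transcription factor gene, at 136546 bp. The deposited promoter class reached 998 bp from the TSS, and other classes began at 999 bp. The paper's text gives promoters a wider limit, of 2000 bp on either side of the TSS. Just outside the limit used here, all-3 regions in the promoter class reached distances of 987 bp at CDC27P1, 984 bp at PHF10 and 983 bp at LPIN2. The newer annotation placed a transcript start within 1000 bp of the edge of 77 of the 519 regions (14.8%), among them the FOXA1, SERPINA3, MYC and ARID2 regions described further on. The deposited distances were not taken from that edge. By the edge, NEK6 stood at 918 bp and ST3GAL2 at 838 bp from a start of the same gene. How many of the 77 come from the measure and how many from the annotation was not tested.

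The first question was how far the core subunit SNF5, whose list took no part in the choice of regions, covered them. SNF5 peaks overlapped 512 of the 519 regions, or 98.7% (95% Wilson interval 97.2 to 99.3%). The share was 88.5% (86.5 to 90.2%) in the 2-ARID and 44.1% (43.0 to 45.1%) in the 1-ARID non-promoter regions, and 97.0% (95.9 to 97.8%) in the all-3 promoter regions. Over all merged ARID regions it was 60.0%, and over all non-promoter regions 51.5%. Intervals cover counting error over regions only.

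By two-sided Fisher exact tests, with p-values adjusted over the 3 comparisons, the odds of SNF5 overlap were 9.52 times those of 2-ARID regions (adjusted p = 6.21e-15) and 92.9 times those of 1-ARID regions (adjusted p = 1.51e-161). Against all-3 promoter regions the odds ratio was 2.28 (Fisher exact test, adjusted p = 0.0494). Regions are not replicates, so these tests compare the deposited lists and not conditions. Wider regions meet more SNF5 peaks, and when regions were compared within 5 width strata the Mantel-Haenszel odds ratio was 4.83 against 2-ARID regions (chi-square test, adjusted p = 1.18e-05) and 38.9 against 1-ARID regions. The strata were cut at quantiles of the pooled widths and the widest had no upper limit, so width was not held equal within them. The lower quartile of width of the 519 (438 bp) exceeded the upper quartile of 1-ARID regions (213 bp). The contrast with promoter regions missed the threshold when all peaks of the non-promoter regions had to be more than 5000 bp from the TSS (odds ratio 1.97, Fisher exact test, adjusted p = 0.185).

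Any pair of ARIDs gave shares below that of the 3 together. SNF5 overlapped 87.5% (83.8 to 90.4%) of the 383 regions with ARID1A and ARID1B, 87.3% (83.8 to 90.1%) of the 432 with ARID1A and ARID2, and 91.3% (87.8 to 93.9%) of the 323 with ARID1B and ARID2. Regions with ARID1A alone had a share of 47.6%, those with ARID1B alone 41.8% and those with ARID2 alone 44.7%. The median width increased in the same order, from 138 to 147 bp with 1 ARID and from 347 to 379 bp with 2 to 635 bp with 3.

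**Figure D1:**
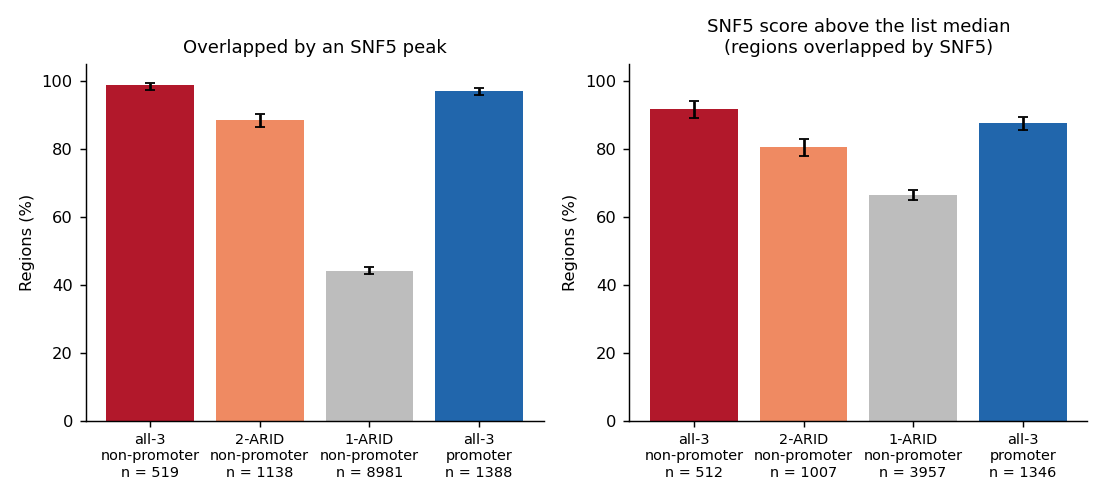
Share of regions in percent (y axis) overlapped by an SNF5 peak (left) and, among those overlapped, with an SNF5 score above the list median (right), in the 4 classes of region (x axis, with the number of regions). Bars are shares and error bars 95% Wilson intervals. On the left the all-3 non-promoter regions stand at 98.7% and the 1-ARID regions at 44.1%. On the right the classes run from 91.8% to 66.5%.

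The score that the peak caller gave each SNF5 peak had a list median of 19, and 49.3% of all SNF5 peaks exceeded it. Among the 512 regions overlapped by SNF5, the highest overlapping score exceeded the list median in 470 (91.8%, 89.1 to 93.9%). It did so in 810 of 1007 of the 2-ARID regions (80.4%, 77.9 to 82.8%). The odds ratio was 2.72 (two-sided Fisher exact test, p = 2.73e-09), and 2.18 within 5 strata of the width of the SNF5 peak (Mantel-Haenszel chi-square test, p = 1.58e-05). The median highest score was 27 in the all-3 non-promoter, 25 in the 2-ARID, 22 in the 1-ARID and 26 in the all-3 promoter regions.

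SNF5 peaks also extended beyond the ARID peaks. Their median width was 1645 bp in the all-3 non-promoter regions against 1221 bp in the 2-ARID regions, and 357 regions (68.8%, 64.7 to 72.6%) lay wholly within 1 SNF5 peak. The 512 regions met 485 different SNF5 peaks, of which 29 spanned 2 of the regions. At the centre of the regions, 95.6% lay under an SNF5 peak, 74.2% under an ARID1A, 67.2% under an ARID1B and 64.2% under an ARID2 peak. At 1000 bp to the right of the centre SNF5 still covered 38.3% and ARID1A 8.67%.

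**Figure D2:**
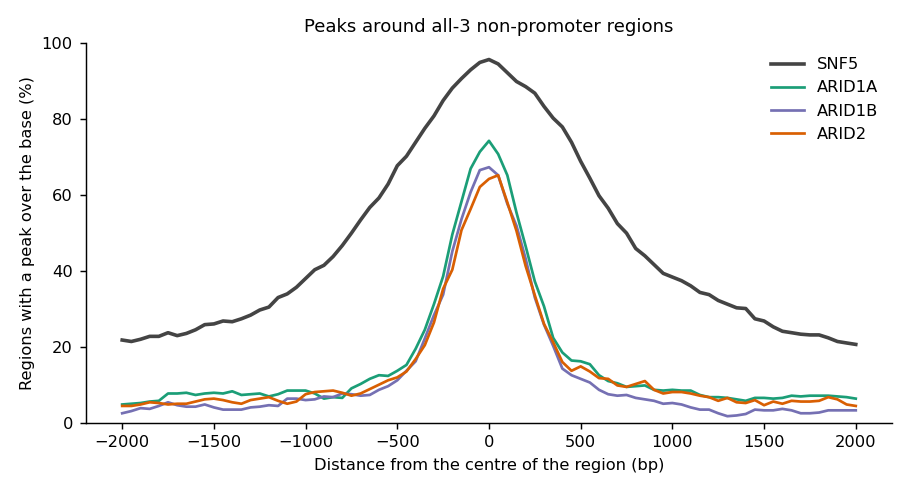
Share of the 519 all-3 non-promoter regions in percent (y axis) with a peak of SNF5, ARID1A, ARID1B or ARID2 over the base at each distance in bp from the centre of the region (x axis). The centre is set by the ARID peaks, so their height there follows from the choice of regions. The SNF5 curve reaches 95.6% at the centre and is broader than the ARID curves.

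The windows of the regions with the highest SNF5 scores differed widely in base composition. Among the 5 highest scores, that of 84 in an intron of STXBP6, a gene for a syntaxin-binding protein, came with a window of 30.7% GC. That of 74 at chr2:33141304-33141672, assigned to AL121656.5, came with a window of 96.7% GC and an observed to expected CpG ratio of 0, under an SNF5 peak of 380 bp. How reads of sequence with so little variety were placed was not tested. WDPCP, a gene of ciliary assembly, followed with 63 at 30.0% GC, and RP11-46C24.6 with 61 at 67.7% GC. The bases shared by the 3 ARIDs are printed for the intronic and the exonic region with the highest score among those with such bases. The 50 shared bases at STXBP6 (84) held no match to the motifs searched, whereas the central 300 bp window of its region held a C/EBP match. Those at RHBG (41), a gene for an ammonium transporter, held a C/EBP and an NRF2 match.
STXBP6 chr14:25308265-25308314: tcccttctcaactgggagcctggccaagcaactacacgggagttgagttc
RHBG chr1:156341420-156341631: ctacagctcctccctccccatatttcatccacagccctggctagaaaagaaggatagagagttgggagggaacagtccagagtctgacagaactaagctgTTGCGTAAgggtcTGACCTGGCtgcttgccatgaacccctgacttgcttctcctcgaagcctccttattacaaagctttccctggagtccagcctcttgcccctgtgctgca

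In 7 regions no SNF5 peak was found. The 3 widest were near BAIAP2L1 (680 bp), near PCMTD1P1 on chromosome Y (455 bp) and near HSPA6, an inducible heat shock protein gene (365 bp). The others were assigned to CTC-265F19.2, RP11-927P21.4, CYP3A5 and MMP15. In 4 of the 7 (BAIAP2L1, CTC-265F19.2, RP11-927P21.4 and MMP15) the ARID peaks had 0 bases in common. CYP3A5, a drug-metabolizing cytochrome P450, had 96 shared bases 13712 bp from its TSS.

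The next question was which chromatin state the regions held, as the authors deposited it for each ARID peak from a segmentation of the genome by histone marks. Read from the widest peak, 288 regions (55.5%) were in a promoter state and 204 (39.3%, 35.2 to 43.6%) in an enhancer state, and 27 in another state. The largest groups were active promoter (222), strong enhancer (185) and weak promoter (63). The enhancer share was 40.2% (37.3 to 43.0%) in the 2-ARID and 39.1% (38.1 to 40.2%) in the 1-ARID regions, and 39.3% over all non-promoter regions. The odds ratios were 0.965 and 1.01 (two-sided Fisher exact tests, adjusted p = 0.963 for both), so no difference in the deposited enhancer share was detectable. In the all-3 promoter regions the enhancer share was 24.6% (22.4 to 27.0%).

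The deposited state depended on the list it was read from, and whether each state belongs to the peak it was deposited with was not tested, which limits all values of state given here. For example, an ARID1B peak of 116 bp near CDC27P1 (chr2:133023154-133023269) was deposited with a repetitive state. An ARID2 peak of 117 bp with the same start was deposited as active promoter. In the 519 regions the widest ARID1B peak was in an enhancer state in 54.9% (50.6 to 59.1%), the widest ARID1A peak in 32.8% (28.9 to 36.9%) and the widest ARID2 peak in 29.5% (25.7 to 33.5%). All peaks were in 1 group of states (enhancer, promoter or other) in 169 regions (32.6%), and 330 (63.6%) mixed 2 groups. Where peaks covered at least 50% of each other, the group was the same in 83 of 170 pairs of ARID1A and ARID1B peaks (48.8%), 117 of 195 pairs of ARID1A and ARID2 peaks (60.0%) and 75 of 148 pairs of ARID1B and ARID2 peaks (50.7%). Counting a region as enhancer when any of its peaks was so gave 71.9%, by Fisher exact tests against 56.6% in 2-ARID regions (odds ratio 1.96, adjusted p = 2.71e-09) and 39.1% in 1-ARID regions (odds ratio 3.97, adjusted p = 3.73e-48), and a region with more peaks has more states to draw from. Within a list, read from the widest peak, the share differed from that of 2-ARID regions by an odds ratio of 1.09 for ARID1A, 1.00 for ARID1B and 1.06 for ARID2, with adjusted p-values of 0.507, 1.00 and 0.660.

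**Figure D3:**
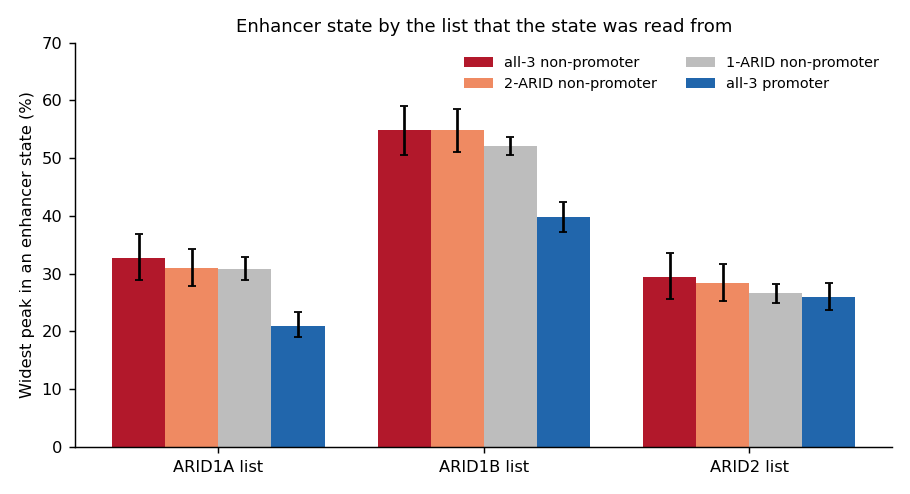
Share of regions in percent (y axis) whose widest ARID1A, ARID1B or ARID2 peak (x axis) was deposited with an enhancer state, in the 4 classes of region. Bars are shares and error bars 95% Wilson intervals. In each list the 3 non-promoter classes lie close together, and the ARID1B list stands above the others, at 54.9% for the all-3 non-promoter regions.

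The sequence of the regions was read from the 300 bp at their centre. GC content had a median of 51.3% in the all-3 non-promoter regions, 50.3% in 2-ARID, 47.7% in 1-ARID and 66.3% in all-3 promoter regions. A CpG-dense window, with GC content above 50% and an observed to expected CpG ratio above 0.6, was present in 99 of the 519 regions (19.1%, 15.9 to 22.7%) and in 16.6% (14.6 to 18.9%) of the 2-ARID regions. This difference was not significant (odds ratio 1.18, two-sided Fisher exact test, p = 0.235). Over all non-promoter regions the share was 8.69%, and it was 80.3% in the all-3 promoter regions. Within the 519, CpG-dense windows were found in 72 of 275 regions whose widest peak was distal (26.2%, 21.3 to 31.7%), 22 of 225 intronic (9.78%, 6.55 to 14.4%) and 5 of 19 exonic ones. They made up 26.0% (21.3 to 31.4%) of the regions in a promoter state and 9.80% (6.44 to 14.7%) of those in an enhancer state.

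Motifs were counted in the same windows on both strands. The letters searched were TGACTCA or TGAGTCA for AP-1, TGTTTAC or TGTTTGC for forkhead factors, CAAAGTCCA or CAAAGGTCA for HNF4, TTGCNNAA for C/EBP, AGATAA for GATA factors, ACATTCC for TEAD, GGGCGG for SP/KLF, CCGGAAG for ETS, CACGTG for the E-box, GCGCATGCG for NRF1, GTTAATNNT for HNF1, TTGGCA for NFI and TGACNNNGC for NRF2, along with a longer CTCF motif. AP-1 and NRF2 matches can overlap. A match is a description of the letters and was not tested as a site. Forkhead matches were found in 95 of the 519 windows (18.3%, 15.2 to 21.9%), against 13.4% (12.7 to 14.1%) in 1-ARID and 5.98% (4.85 to 7.35%) in all-3 promoter regions. HNF4 matches were found in 30 windows (5.78%, 4.08 to 8.13%), against 2.82% (2.49 to 3.18%) and 1.08% (0.656 to 1.78%). C/EBP matches were found in 17.5% (14.5 to 21.0%) and AP-1 matches in 9.44% (7.22 to 12.3%), against 15.7% (15.0 to 16.5%) and 7.78% (7.25 to 8.36%) in 1-ARID regions, with overlapping intervals, and 7.85% and 3.46% in all-3 promoter regions. GATA matches were found in 12.5% (9.95 to 15.6%), below the 15.7% (15.0 to 16.5%) of 1-ARID regions, with overlapping intervals, and in 4.61% of all-3 promoter regions. Against all-3 promoter regions the reverse order held for SP/KLF, with 23.1% (19.7 to 26.9%) against 66.1% (63.5 to 68.5%), and for ETS, with 3.47% against 14.2% (12.5 to 16.1%). In 1-ARID regions SP/KLF matches stood lower than in the 519, at 13.6% (12.9 to 14.3%), and over all non-promoter regions at 15.0%. ETS matches stood at 2.12% (1.84 to 2.43%) in 1-ARID regions, with overlapping intervals.

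With 2-ARID regions the intervals overlapped for each of these motifs. Forkhead matches stood at 18.0%, HNF4 at 4.57%, C/EBP at 19.4%, AP-1 at 10.1% and SP/KLF at 22.1% there. Over all 25247 regions the shares were 9.51% for forkhead, 1.96% for HNF4, 11.6% for C/EBP, 5.49% for AP-1, 10.3% for GATA, 37.7% for SP/KLF and 7.22% for ETS. The remaining motifs were found in 14.6% of the 519 windows for NRF2, 13.5% for NFI, 7.71% for the E-box, 5.20% for TEAD, 3.66% for HNF1, 0.963% for NRF1 and 0.385% for CTCF. Over all regions these were 13.4%, 11.7%, 6.5%, 3.87%, 2.65%, 1.72% and 0.313%. In 1-ARID regions E-box matches stood lower, at 4.49% (4.08 to 4.94%), as did NRF1 matches, at 0.145% (0.0846 to 0.248%). For the others of these motifs the intervals of the 519 and of 1-ARID regions overlapped. Intronic regions had forkhead matches in 23.1% (18.1 to 29.0%) and distal ones in 14.9% (11.2 to 19.6%), and AP-1 matches in 12.4% (8.75 to 17.4%) and 7.27% (4.76 to 11.0%).

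**Figure D4:**
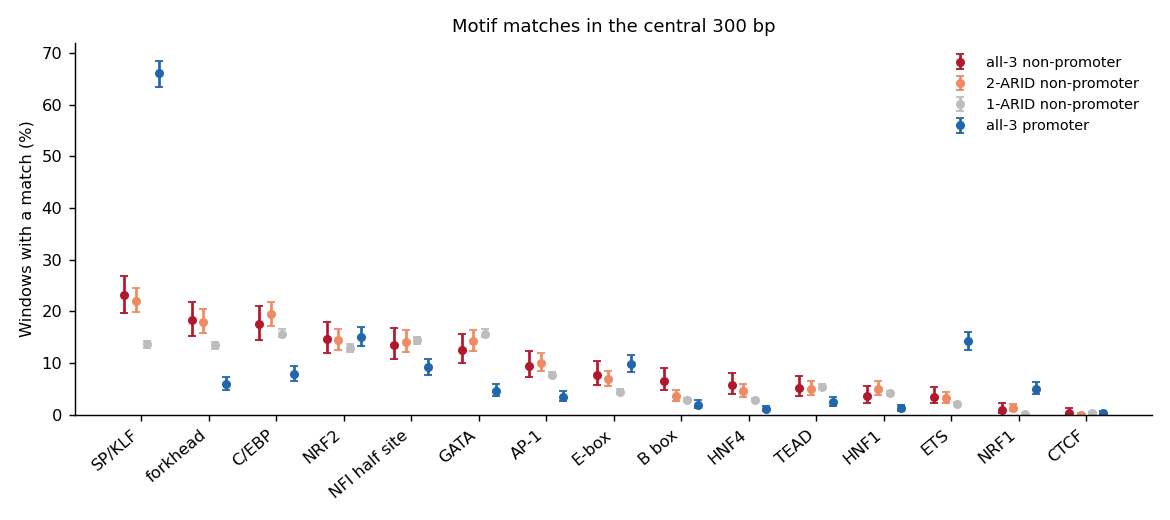
Share of windows in percent (y axis) with at least 1 match to each motif (x axis) in the central 300 bp of the 4 classes of region. Points are shares and error bars 95% Wilson intervals. SP/KLF separates the all-3 promoter regions, at 66.1%, from the all-3 non-promoter regions, at 23.1%, and forkhead, C/EBP, GATA, AP-1 and HNF4 lie higher in the latter.

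After the values had been seen, the letters GTTCGANNC were added to the search. They belong to the B box, the internal promoter element of tRNA genes that RNA polymerase III uses. They were found in 34 of the 519 windows (6.55%, 4.73 to 9.02%), against 3.60% (2.67 to 4.85%) in 2-ARID, 2.84% (2.52 to 3.20%) in 1-ARID and 1.95% (1.34 to 2.82%) in all-3 promoter regions, and 2.49% over all regions. The intervals of the 519 and of the 2-ARID regions overlapped, and 7 of the 34 lay in 1 group of neighbouring regions on chromosome 1. Of the 34, 32 were distal by their widest peak, 32 were in a promoter state, and all 34 were overlapped by SNF5. An example is printed, with the match in capitals on the minus strand.
KPNA2 chr17:66015933-66016232: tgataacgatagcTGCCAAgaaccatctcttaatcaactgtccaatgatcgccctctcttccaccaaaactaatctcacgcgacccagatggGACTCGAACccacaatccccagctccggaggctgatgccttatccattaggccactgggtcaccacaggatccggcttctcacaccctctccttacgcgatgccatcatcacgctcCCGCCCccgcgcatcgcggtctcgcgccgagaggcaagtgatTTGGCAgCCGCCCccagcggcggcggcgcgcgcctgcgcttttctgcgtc
By Gencode v44 the stretch is intergenic, in the region assigned to KPNA2, an importin gene 15519 bp away, and it also held NFI and SP/KLF matches. No separate annotation of tRNA genes was used, so whether this or any other window with these letters lies in a tRNA gene was not tested.

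Some regions lay close together. With regions at most 10000 bp apart linked, 393 stood alone, 41 groups held 2 regions and 9 groups held 3 or more, with 44 regions in the latter. The largest had 10 regions in 24394 bp of chromosome 1 (chr1:161416941-161441334), assigned to RP11-122G18.7 and to FCGR2A, an immunoglobulin receptor gene of myeloid cells, and 7 of the 10 held the B box letters. The next had 8 regions in 18055 bp of chromosome 2 (chr2:133016719-133034773), assigned to the pseudogene CDC27P1 and to ANKRD30BL, with repetitive states at 6 of them. A group of 5 lay on chromosome Y, at the pseudogenes PCMTD1P1 and CDC27P2, and had no state for any of its widest peaks. How reads of repeated sequence were placed was not tested here. The regions assigned to RP11-122G18.7, FCGR2A and CDC27P1 shared 1154, 1351 and 1922 bases among the 3 ARIDs.

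Among protein-coding genes outside such repeats, SLC7A5, a transporter of large neutral amino acids, had 6 regions in 23406 bp (chr16:87881277-87904682). They ran from 1115 bp upstream of its TSS to 11182 bp into the gene by the deposited distances, and 5 of them were intronic. FOXQ1, a forkhead transcription factor gene, had 5. Of these, 3 lay within 5224 bp of each other and at least 43480 bp away, and the others were at its exon, 1511 bp from the TSS, and 3916 bp off. The repeat-family names snoU13 (5 regions), Y_RNA (4), U6 (4) and Metazoa_SRP (4) each stand for many copies in the genome and name no single locus.

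**Figure D5:**
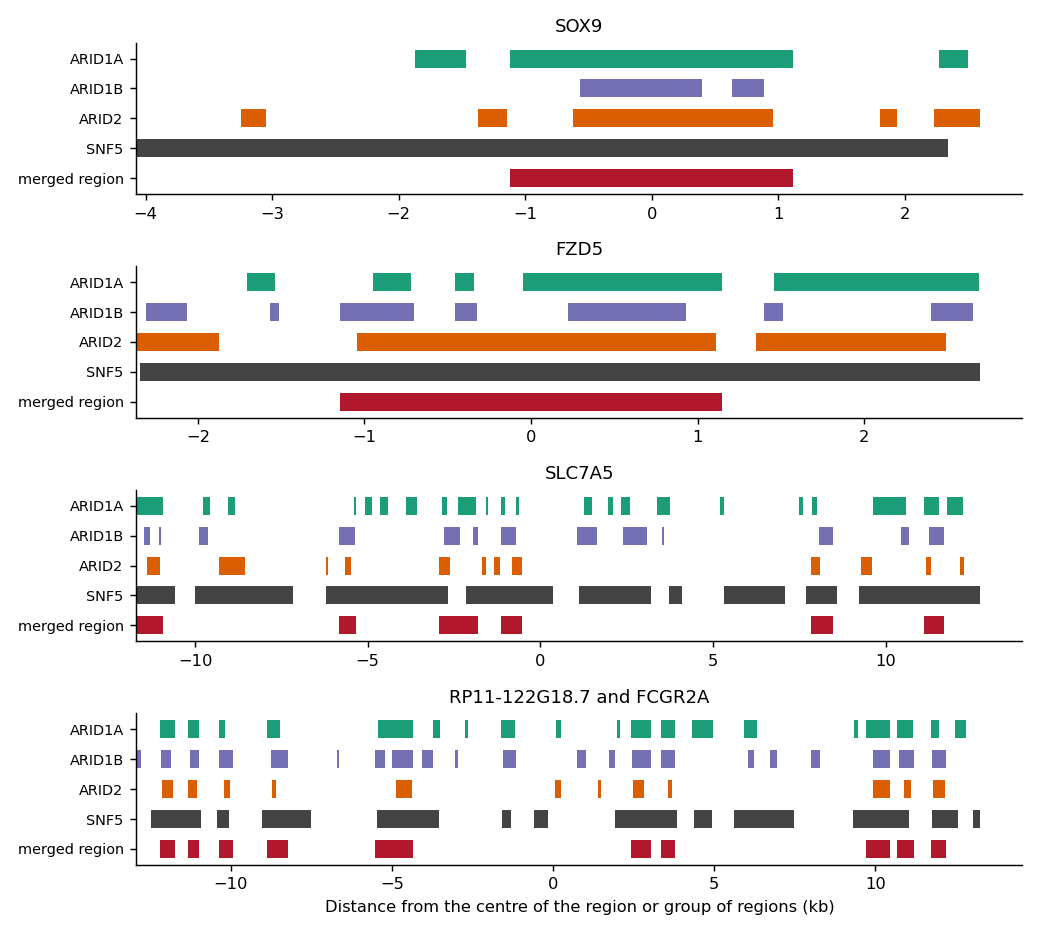
Peaks of ARID1A, ARID1B, ARID2 and SNF5 and the merged all-3 non-promoter regions (rows) against the distance in kb from the centre of the region or group (x axis, to scale in each panel), at SOX9, FZD5, SLC7A5 and the group of 10 regions near RP11-122G18.7 and FCGR2A. Bars span each peak. SOX9 and FZD5 show 1 broad region under 1 SNF5 peak, and the other panels show 6 and 10 separate regions.

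The 10 regions with the most shared bases were led by SOX9, with 1216 shared bases in a region of 2237 bp (chr17:70118381-70120617) 2253 bp from its TSS. There an ARID1A peak of 2237 bp held an ARID2 peak of 1579 bp and ARID1B peaks of 966 and 250 bp. FZD5 followed with 1049 bases (chr2:208631302-208633595), where 1 ARID2 peak of 2156 bp met 3 ARID1A and 3 ARID1B peaks. KCTD2, a gene for an adaptor of cullin ubiquitin ligases, had 713 bases, and ARID3A, a DNA-binding ARID protein that is not a SWI/SNF subunit, had 698. AP4S1, an adaptor complex subunit, had 663, AC007405.2 had 662, KPNA2 had 623, PLLP, a myelin membrane protein gene, had 611, AC011753.6 had 579 and RP11-290F20.1 had 562. In ARID3A the peaks nested, with ARID1B at 1211 bp, ARID1A at 874 bp and ARID2 at 698 bp. The state of the widest peak was active promoter in 8 of the 10 and strong enhancer at SOX9 and RP11-290F20.1, and the SNF5 scores ran from 27 to 44.

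The 519 regions carried 437 gene names, 379 of them for 1 region, 45 for 2 and 13 for 3 or more. This was 8.01% of the 5457 names given to any non-promoter ARID region. Of the 437 names, 246 (56.3%) also had an ARID peak in the promoter class, and 86 (19.7%) an all-3 promoter region. Among the 924 names of 2-ARID non-promoter regions, 533 (57.7%) had a promoter peak. Nearest genes were assigned by distance, so a name does not show that a region acts on the gene.

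Gene lists were read against that 8.01%, as counts with no test. Of the transcription factors of hepatocytes, 15 had a non-promoter ARID region and 4 of them (26.7%) an all-3 region. FOXA1, a pioneer factor of liver enhancers, had a region of 1197 bp with 5 peaks and 248 shared bases, 4992 bp from its TSS, in a strong enhancer state. PROX1, a homeobox factor of liver development, had a region 54178 bp away with 53 shared bases. RXRA, the partner of many nuclear receptors, and NR2F6, an orphan nuclear receptor, had intronic regions at 2584 and 2053 bp, with 36 and 0 shared bases. The 248 bases at FOXA1 overlap a non-coding exon of ENSG00000289903 and held no match to the motifs searched. The central 300 bp window of the region, in which motifs were counted, held forkhead and SP/KLF matches.
FOXA1 chr14:38057630-38057877: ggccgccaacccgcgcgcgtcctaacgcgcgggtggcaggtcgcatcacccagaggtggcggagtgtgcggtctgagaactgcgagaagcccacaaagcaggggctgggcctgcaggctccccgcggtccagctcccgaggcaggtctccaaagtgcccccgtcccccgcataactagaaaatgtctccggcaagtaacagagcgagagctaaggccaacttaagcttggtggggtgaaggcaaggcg

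Of the apolipoproteins and plasma proteins, 2 of 19 (10.5%) had an all-3 region. APOB, the structural protein of very low density lipoprotein, had 2. At its intronic region (chr2:21265155-21265527), ARID2 linked ARID1A and ARID1B peaks that did not touch each other, so no base was common, and the SNF5 score was 33. The distal region, 26526 bp away, had 254 shared bases and an SNF5 score of 23. SERPINA3, the acute phase protein alpha-1-antichymotrypsin, had 466 shared bases 7247 bp from its TSS, and its central shared bases held an AP-1 match.
SERPINA3 chr14:95065551-95065850: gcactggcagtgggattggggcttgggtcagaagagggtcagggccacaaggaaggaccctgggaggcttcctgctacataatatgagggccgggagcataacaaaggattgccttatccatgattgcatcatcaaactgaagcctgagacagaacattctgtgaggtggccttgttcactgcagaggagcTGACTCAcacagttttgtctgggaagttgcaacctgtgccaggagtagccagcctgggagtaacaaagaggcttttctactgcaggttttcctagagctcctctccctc

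Of the Wnt and beta-catenin genes, 5 of 13 (38.5%) had an all-3 region. They included the receptor FZD5 and co-receptor LRP5, the ubiquitin ligases RNF43 and ZNRF3 that remove Frizzled receptors from the membrane, and SP5, a transcription factor induced by Wnt. RNF43 had intronic regions 5931 and 10782 bp from its TSS, with 70 and 0 shared bases. ZNRF3 had intronic regions at 3372 and 6566 bp, with 0 and 163. The SP5 region, of 1614 bp and 6 peaks, had 122 shared bases and an SNF5 score of 37. LRP5 had 5 shared bases 13617 bp away. The shared bases in the ZNRF3 intron had a GC content of 68.7% and held 1 SP/KLF match.
ZNRF3 chr22:29319867-29320029: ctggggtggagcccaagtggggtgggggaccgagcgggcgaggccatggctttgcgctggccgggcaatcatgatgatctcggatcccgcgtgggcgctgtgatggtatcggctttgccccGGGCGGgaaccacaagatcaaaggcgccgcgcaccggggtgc

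The other lists gave 1 or 2 genes each. Of the AP-1 and immediate early genes, 2 of 16 (12.5%) had an all-3 region: MYC, the growth regulator, with 52 shared bases in an intron 1450 bp from its TSS, and CTGF, a matrix protein gene induced by TGF-beta and YAP, with 2 regions at 7607 and 29542 bp and 39 and 81 shared bases. Of the lipid and insulin genes, 2 of 16 (12.5%) did, IRS1 and IGFBP1. The region of IRS1, the insulin receptor substrate, lay 61305 bp from its TSS in a strong enhancer state. By Gencode v44 it lay within IRS1 and touched a UTR. That of IGFBP1, an insulin-repressed secreted protein, lay 6037 bp from its TSS in a promoter state. Both had 0 shared bases and both windows held C/EBP and NRF2 matches. Of the TGF-beta and SMAD genes, 1 of 14 (7.14%) did, the receptor TGFBR2, with 0 shared bases and an SNF5 score of 18. Of the SWI/SNF subunit genes, 1 of 8 (12.5%) did. This was ARID2 itself, with 98 shared bases 1787 bp from its TSS.

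By chromosome, the 519 regions were most numerous on chromosome 6 (76 regions, 8.39% of its non-promoter regions), chromosome 2 (68, 5.91%), chromosomes 16 and 17 (55 each, 7.28% and 7.04%) and chromosome 20 (36, 7.48%). Chromosome 1, with 935 non-promoter regions, had 37 (3.96%), chromosome 4 had 5 (1.69%) and chromosome 5 had 4 (0.952%). The copy number of these chromosomes was not analysed here.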

How the data were processed

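ChIP-seq libraries of ARID1A, ARID1B, ARID2 and SNF5 (2 replicates each) and 1 input were grouped by title. Per the study's methods, reads were mapped by the authors to hg19 (bowtie2), cleared of duplicates, pooled over replicates and passed to MACS2 for broad peaks, which were joined when close and cleared of blacklisted ones. The deposited ARID lists hold positions, class, nearest gene, distance and chromatin state. The deposited SNF5 list holds a score (median 19). Neither holds counts. Starts are printed counted from 1.

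Merged regions, overlaps (at least 1 bp) and sequences (GRCh37) were computed with pandas 2.3.3 and pysam 0.24.0. Fisher exact tests used scipy 1.17.1, Mantel-Haenszel tests statsmodels 0.14.6, and the Benjamini-Hochberg adjustment was written for the purpose, all at a threshold of 0.05. Scripts were tested on simulated data. A chromatin state was called enhancer for strong or weak enhancer states, and promoter for active, weak or poised promoter states. Genes named are those of the 10 regions with most shared bases, the 10 names with most regions, the 5 highest SNF5 scores, the regions without SNF5, the nearest and farthest regions, the promoter regions just outside the distance limit, the sequences shown, and the listed genes. The members and lists were chosen with earlier results of these data known. Alternatives covered the overlap rule, width, TSS distance, score, state and autosomes. The input, RNA-seq and signal tracks were not analysed here. Items that this rule or the choice of sequences would add but that are absent from the text are not reported here.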

Additional observations from a re-analysis of the deposited data

How the results depend on the processing

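No paired analysis was possible because each list pools both replicates, and for the same reason no replicate could be left out. Of 51 alternatives for the 7 odds ratios, 42 kept direction and side of the threshold. The number of regions stayed within 1.5 times 519 under 4 of 6 alternatives, and was 320 with all peaks more than 5000 bp from the TSS and 112 with reciprocal overlap of at least 50%. It was 444 with the newer annotation, measured from the region edge, in place of the deposited class.

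The odds ratio of SNF5 overlap ranged from 4.03 to 26.6 against 2-ARID and from 27.3 to 301 against 1-ARID regions. Against all-3 promoter regions it ranged from 1.58 to 4.46, and the call was lost at 1.97 beyond 5000 bp from the TSS, with fewer regions compared. That for the SNF5 score ranged from 2.18 to 3.13, and that for CpG-dense windows from 1.04 to 1.43, in no case past the threshold.

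The enhancer comparison with 1-ARID regions turned to 0.960 beyond 5000 bp from the TSS and 0.954 within width strata, both not significant, and passed the threshold at 3.97 when any peak of the region counted. That with 2-ARID regions turned to 1.96, past the threshold, when any peak counted. Chosen after seeing the data, it turned to 1.04 without B box or CDC27P1 and CDC27P2 regions, and to 1.09, 1.00 and 1.06 with the state read from ARID1A, ARID1B and ARID2 peaks, none significant. Leaving out those regions changed no call for SNF5 overlap and score or CpG-dense windows against 2-ARID regions, and leaving out regions with a newer transcript start within 1000 bp changed none for CpG-dense windows or enhancer states against 2-ARID regions. Neither was run for the other comparisons.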
